A study of Mus musculus with 6 samples.

Results

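The Rab GTPase and vesicle SNARE genes are described here in mouse regulatory T (Treg) cells labelled deficient or sufficient in the transcription factor gene Gata3. They were chosen by name: every gene whose single annotated symbol was Rab, Vamp, Stx or Snap followed by a number, with an optional letter or digit as in Rab6a, Stx4a and Rab29. Rab27a, Stx11 and Vamp8, which act in cytotoxic granule release, were left out. This gave 72 genes of 12394 measured, namely 49 Rab, 6 Vamp, 12 Stx and 5 Snap genes. One of them, Snap91, is a clathrin assembly protein that shares its symbol with the SNAP proteins but is no SNARE.

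Expression was measured on Affymetrix arrays, with 3 arrays of Gata3-deficient and 3 of Gata3-sufficient Treg cells. Spleen and lymph nodes were the source, and cells positive for CD4, CD25 and YFP were sorted. Deficient cells came from Gata3F/F Foxp3YFP-Cre mice, in which both Gata3 alleles are floxed, and sufficient cells (titled WT) from Gata3F/+ Foxp3YFP-Cre mice with 1 floxed allele. The series' design text gives 3 mice for each genotype, and age and sex were not given in the sources used here. All 6 arrays therefore come from mice that carry YFP and Cre recombinase at the Foxp3 locus and at least 1 floxed allele, and no array is from a mouse without them.

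Rab proteins are small GTPases that switch between a GDP-bound form in the cytosol and a GTP-bound form on a membrane, where they recruit motors, tethers and other effectors. SNARE proteins drive the fusion itself: an R-SNARE, usually on the vesicle, zips together with Q-SNAREs on the target membrane. Each compartment has its own set of Rabs and SNAREs. T cells use them to deliver T cell receptors, cytokines and granules to the contact with another cell, and Treg cells to cycle the inhibitory receptor CTLA-4 between endosomes and the surface.

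The arrays and labels were checked first. Array medians lay between 6.06 and 6.11 log2 units. Of 7 Treg markers 6 were not dim, where dim means a mean below 5.25, the 40th percentile of all probe sets. Their summed linear intensities were 6324 to 7247 in sufficient and 7492 to 7657 in deficient arrays, and 0 of the 7 passed in limma. Foxp3, which defines the cells, was dim, at 3.90 ± 0.05 and 3.94 ± 0.12 (SD, n = 3 each) in sufficient and deficient arrays. The Gata3 probe set, an array feature that reads 1 transcript region, was higher in the arrays labelled deficient (9.84 against 9.48, adjusted p = 0.0387 in limma, and 0.15 without limma's intensity trend). It does not check the labels if it lies outside the deleted part, so every direction below rests on the labels. Of the 4 B cell markers Cd22 alone passed the test (higher) and Cd79a was dim. Their log2 changes went both ways: 1.15 for Cd22, 0.23 for Cd79b, -0.40 for Ms4a1 and -0.20 for Cd79a. Their summed linear intensities were 355.1 to 368.8 in sufficient and 479.1 to 563.8 in deficient arrays. Those of 5 neutrophil markers (4 of them dim) were 120.7 to 140.0 and 141.2 to 290.9, and those of 6 myeloid markers (Itgam and Cd14 dim) 251.9 to 317.5 and 317.1 to 495.4. Summed NK markers (Ncr1 dim) were 525.3 to 569.8 and 483.3 to 545.3, with log2 changes of -0.71 for Klrd1 and 0.03 for Nkg7. The part of these cells in the values below was not tested.

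At an adjusted p under 0.05 in limma, 0 of the 72 Rab and SNARE genes passed. Among all 12394 genes 2.21% did, 1.44% higher and 0.766% lower. Before adjustment, at p under 0.05, 2 members were higher and 4 lower, against 8.63% and 5.8% of all genes. The median log2 change (deficient minus sufficient) was 0.02 over the members and 0.01 over all genes, and 41 of the 72 members (56.9%) had a positive change, against 53% of all genes. The members' median was -0.0018 when all probe sets of a gene were averaged. The smallest adjusted p were 0.0824 for Vamp4 and 0.0849 for Rab37. For 9 members (12.5%), 6 higher and 3 lower, every array of one group lay beyond every array of the other, against 19.8% of all genes (11.3% and 8.51%). The arrays are bulk samples, so fewer cells of a type and less RNA per cell cannot be told apart.

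The precision of these values limits how large an undetected change could be. On the probe set that stands for the gene, the 95% interval excluded a 1.5-fold difference in either direction for 70 of the 72 members. For 56 (77.8%) it excluded a 1.25-fold difference. Rab6b and Rab20 were the 2 exceptions to the first count. Over all genes, 95.4% of intervals lay within 1.5-fold and 62% within 1.25-fold. Of the members 58 were not dim and 14 were dim, against 36.3% dim of all genes. Among the 58, 57 intervals (98.3%) lay within 1.5-fold and 49 (84.5%) within 1.25-fold. All genes not dim had 95.2% and 71.5%. The signal of the 14 dim members cannot be set against background here, so their intervals do not exclude a change of the transcript. For the other members an interval covers 1 probe set and not every reading of the gene. That of Rab2a ran from -0.07 to 0.15, while its second brightest probe set, also not dim, read -0.20. In 17 of the 26 members with several probe sets that were not dim, the changes had both signs. With 3 arrays against 3 an exact permutation test of 1 gene cannot give a p below 0.1, and limma's tests borrow information on the spread from all genes.

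**Figure D1:**
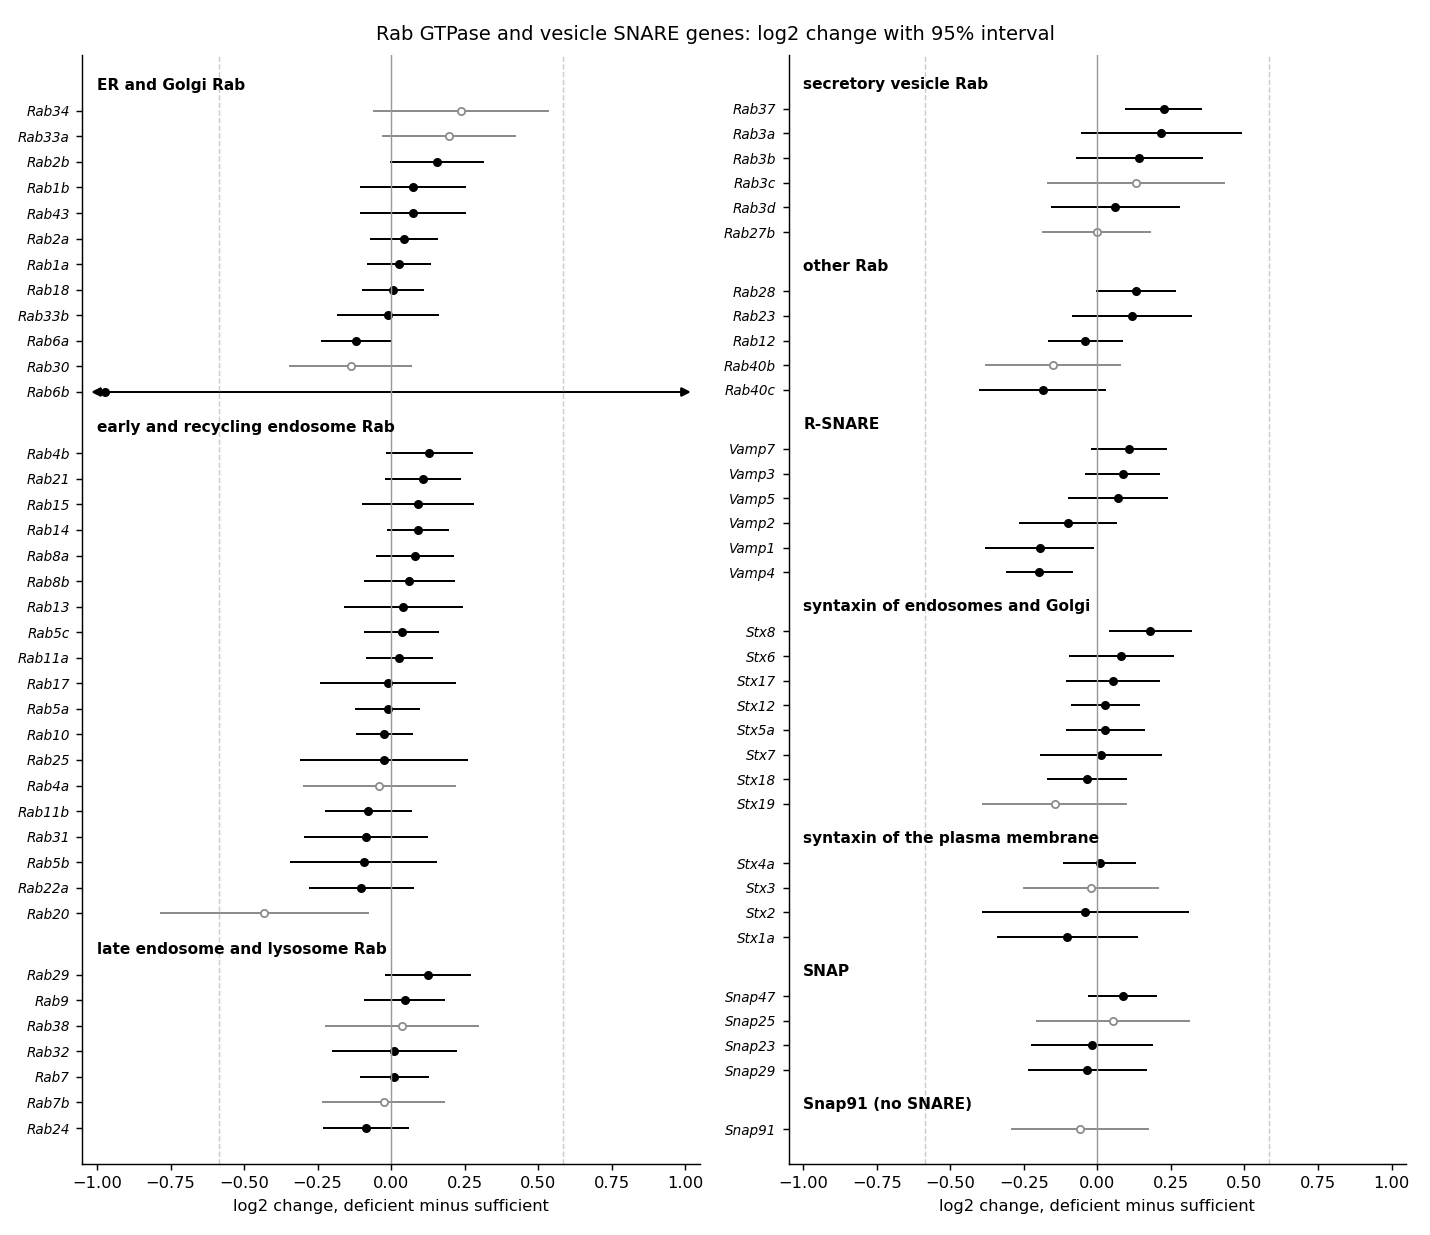
Log2 change (deficient minus sufficient, horizontal axis) of the 72 members, grouped by role. Points are limma estimates, lines 95% intervals, open grey points dim probe sets, dashed lines a 1.5-fold change, and arrowheads mark an interval that runs beyond the axis. Every interval except those of Rab6b and Rab20 stays inside the dashed lines.

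GATA factors bind DNA at words built on the letters GATA, so the 250 bases before each transcription start were searched for AGATAA and AGATAG, and for TGATAA and TGATAG, on both strands. No word holds another, though neighbouring words can share bases. RefSeq promoter windows of build GRCm38.p6 were found for 60 of the 72 members by gene ID. A word was present in 15 of their 75 windows (20.0%), against 26.5% of all 32851 windows. Median GC content was 59.2% in the members' windows and 52.4% in all windows. The members with a word had log2 changes from -0.43 to 0.24 with a median of 0.01, and the 45 without one had a median of 0.03. Rab20 and Rab34, both dim, are shown because they had the lowest and the highest change among members with a word. Vamp4 is shown because it had the smallest p of all members, and its window holds none of these words. Capitals mark the GATA word.
Rab20: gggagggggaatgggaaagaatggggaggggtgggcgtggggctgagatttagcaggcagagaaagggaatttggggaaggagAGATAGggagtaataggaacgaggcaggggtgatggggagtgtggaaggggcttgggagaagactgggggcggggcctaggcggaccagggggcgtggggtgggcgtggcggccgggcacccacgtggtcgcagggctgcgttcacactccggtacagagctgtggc
Rab34: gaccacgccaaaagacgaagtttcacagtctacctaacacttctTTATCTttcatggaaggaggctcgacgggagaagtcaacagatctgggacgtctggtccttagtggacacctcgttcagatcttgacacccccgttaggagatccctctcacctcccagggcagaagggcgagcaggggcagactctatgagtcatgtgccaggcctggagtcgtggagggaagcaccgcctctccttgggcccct
Vamp4: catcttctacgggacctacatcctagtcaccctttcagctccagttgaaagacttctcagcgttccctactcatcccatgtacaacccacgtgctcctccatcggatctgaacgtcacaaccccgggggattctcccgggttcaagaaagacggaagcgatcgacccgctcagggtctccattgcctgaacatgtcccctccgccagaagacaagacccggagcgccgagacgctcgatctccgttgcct
The Rab20 window is chr8:11478641-11478890 on the minus strand, the Rab34 window chr11:78188177-78188426 on the plus strand and the Vamp4 window chr1:162570265-162570514 on the plus strand. The Rab20 word starts 167 bases before the transcription start, and the Rab34 word, TTATCT, is AGATAA read on the other strand. These are matches of letters only, and binding was not measured.

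R-SNAREs had the member nearest to the threshold. Vamp4, an R-SNARE of transport between the trans-Golgi and endosomes, read 9.25, 9.20 and 9.20 in the sufficient arrays 1 to 3 and 8.97, 9.001 and 9.08 in the deficient arrays 1 to 3. All 3 deficient arrays were below all 3 sufficient arrays, with a log2 change of -0.20 ± 0.05 (SE, n = 3 and 3, adjusted p = 0.0824). This difference exceeded the spread within each group but did not pass over all genes, and with the 3 probe sets of Vamp4 averaged it was -0.10. Vamp1, a synaptobrevin of exocytosis, read 6.93, 6.75 and 6.86 against 6.56, 6.66 and 6.72, also without overlap (-0.20 ± 0.08, SE, adjusted p = 0.302). Its other probe set, a dim one, read 0.11, and the average of both gave -0.042. Vamp7, which serves lysosome exocytosis, was the third R-SNARE without overlap, in the other direction (0.11 ± 0.06, SE, adjusted p = 0.437). Vamp2 (-0.10), Vamp3 (0.09) and Vamp5 (0.07) overlapped between groups. A second, dim probe set of Vamp5 read -0.30, without overlap. On the probe sets that stand for the genes, 3 of the 6 R-SNAREs (50%) had no overlap, against 19.8% of all genes. The 6 R-SNAREs thus went both ways, with 3 positive and 3 negative changes.

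Secretory vesicle Rabs included the other member near the threshold. Rab37, a Rab of secretory granules, read 8.01, 8.01 and 7.95 in sufficient and 8.29, 8.19 and 8.18 in deficient arrays. The groups did not overlap, and the log2 change was 0.22 ± 0.06 (SE, n = 3 and 3, adjusted p = 0.0849), or 1.17-fold. Rab3a, which acts in regulated secretion of neurons and endocrine cells, had a change of 0.22 ± 0.12 (SE, adjusted p = 0.464), which was 0.094 without deficient replicate 1. It read 6.10, 5.90 and 6.04 in sufficient and 6.48, 6.19 and 6.03 in deficient arrays, so deficient replicate 3 lay below 2 of the sufficient arrays. The paralogs Rab3b (0.14), Rab3c (0.13, dim) and Rab3d (0.06) did not pass either, and Rab27b, a dim member, was at -0.0026. Other probe sets of Rab3c, also dim, read -0.26 and -0.06. In this group 5 of 6 changes (83.3%) were positive, against 53% of all genes, and the median was 0.14.

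**Figure D2:**
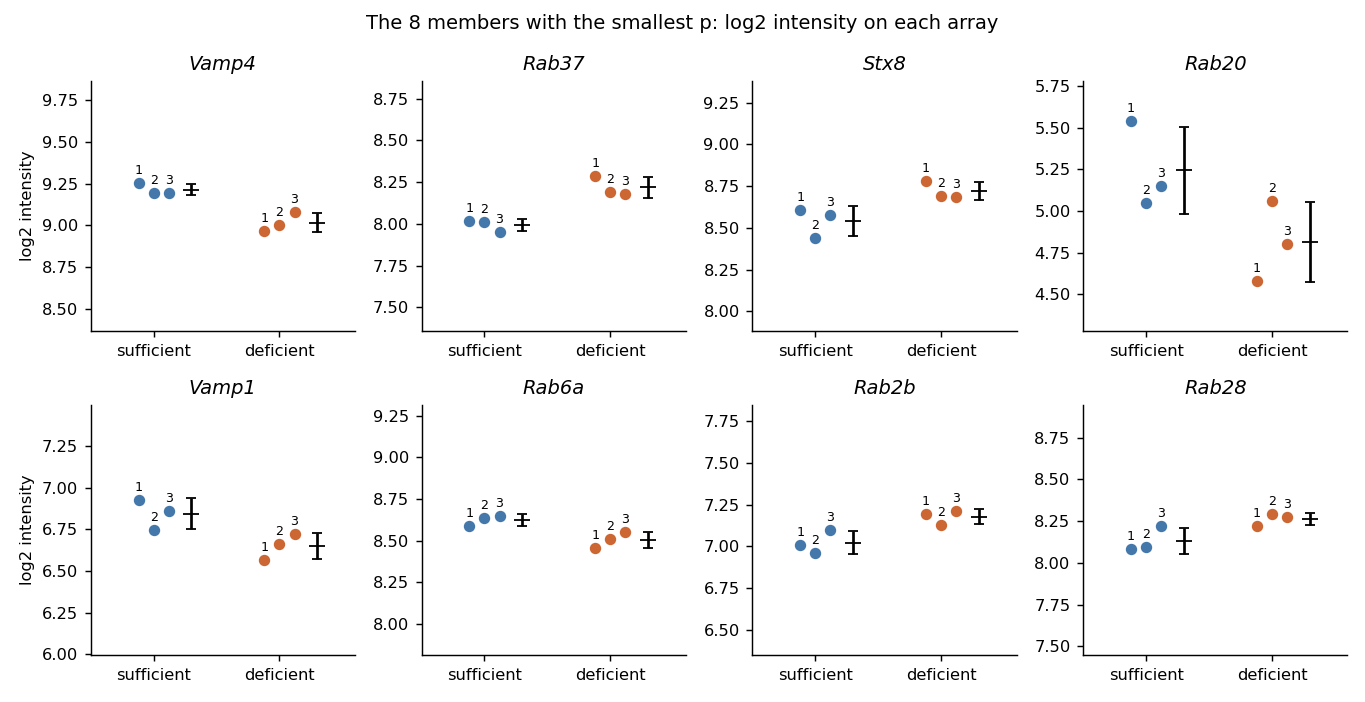
Log2 intensity (vertical axis, 1.5 log2 units in every panel) of the 8 members with the smallest p on each of the 6 arrays. Points are arrays numbered by replicate, and bars beside them show mean and SD (n = 3). The groups overlap only for Rab20 and nearly meet for Rab28 (8.2224 and 8.2234), and all 8 adjusted p in limma lie between 0.0824 and 0.358.

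Among syntaxins of endosomes and the Golgi, Stx8 had the smallest p. Stx8, a Q-SNARE of late endosome fusion, read 8.61, 8.44 and 8.58 in sufficient and 8.78, 8.69 and 8.69 in deficient arrays, without overlap (0.18 ± 0.06, SE, adjusted p = 0.189). Its other probe sets read -0.05 and, on a dim one, -0.29, and the average of all 3 was -0.051. Stx7, its usual partner on late endosomes, had an estimate near 0 (0.01 ± 0.09, SE, 95% interval -0.19 to 0.21). The other 6 were Stx5a and Stx18 of the early secretory pathway, Stx6 of the trans-Golgi, Stx12 of endosomes, Stx17 of autophagosomes and the dim Stx19. Their changes lay between -0.15 (Stx19) and 0.08 (Stx6).

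Among the syntaxins of the plasma membrane and the SNAP genes, which were not grouped by location, no member had an unadjusted p under 0.05 in limma. Stx1a, best known from nerve terminals, read 8.80, 9.23 and 9.15 in sufficient and 8.82, 9.005 and 9.05 in deficient arrays, and the groups overlapped (-0.10 ± 0.11, SE). Stx2 was the most variable SNARE gene, at 6.79 ± 0.32 and 6.75 ± 0.21 (SD, n = 3 each). Stx4a, whose product takes part in surface delivery in many cell types, was estimated more closely, at 0.01 ± 0.05 (SE), and its interval lay within 1.25-fold. Snap23, the widely expressed SNAP, had a change of -0.02 ± 0.09, and Snap47 one of 0.09 ± 0.05 (SE). Snap25, the neuronal SNAP, and Stx3 were dim, as was Snap91 (-0.06 ± 0.10, SE).

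Rabs of the endoplasmic reticulum and Golgi had 1 member, Rab6a, with an unadjusted p under 0.05. Rab6a, which directs retrograde transport through the Golgi, read 8.59, 8.64 and 8.65 in sufficient and 8.46, 8.51 and 8.55 in deficient arrays. The groups did not overlap, but the change was small (-0.12 ± 0.05, SE, adjusted p = 0.336). Rab2b, a Golgi Rab, was non-overlapping in the other direction (0.16 ± 0.07, SE, adjusted p = 0.35), but 3 of its 5 probe sets were negative and their average was 0.029. Rab1a and Rab1b, needed for transport from the endoplasmic reticulum to the Golgi, had changes of 0.03 ± 0.05 and 0.07 ± 0.08 (SE). The dim members Rab33a (0.20, adjusted p = 0.42) and Rab34 (0.24, adjusted p = 0.476) overlapped between groups.

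The groups did not overlap for 0 of the 19 early or recycling endosome Rabs, against 19.8% of all genes. Rab20, a Rab of endosomes and phagosomes, read 5.54, 5.05 and 5.15 in sufficient and 4.58, 5.06 and 4.80 in deficient arrays, on a dim probe set. Deficient replicate 2 lay above sufficient replicate 2, and the change of -0.43 ± 0.16 (SE) had an adjusted p of 0.231 and was -0.28 without sufficient replicate 1. Rab5a and Rab5c, which govern fusion of early endosomes, had changes of -0.01 ± 0.05 and 0.04 ± 0.05 (SE). Rab11a, the Rab of recycling endosomes, was at 0.03 ± 0.05, and Rab10, which brings vesicles to the surface, at -0.02 ± 0.04 (SE). Rab4b (0.13 ± 0.07, SE, adjusted p = 0.409) and Rab14 (0.09 ± 0.05, adjusted p = 0.415) had the next smallest p of this group, and Rab14 turned to -0.023 with its probe sets averaged. Of the 19 intervals 17 lay within 1.25-fold, and Rab20 and Rab4a were dim.

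All 7 intervals of late endosome and lysosome Rabs lay within 1.25-fold. Of these genes Rab38 and Rab7b were dim, with a signal that cannot be set against background here. Rab7, the main Rab of late endosomes, read 9.68 ± 0.02 in sufficient and 9.69 ± 0.08 in deficient arrays (SD, n = 3 each). Rab29, which acts at the trans-Golgi and lysosomes, was the 1 member of this group without overlap (0.13 ± 0.06, SE, adjusted p = 0.412), and Rab24, linked to autophagy, was at -0.09 ± 0.06 (SE). Of the 5 remaining Rabs, Rab28 had groups that did not overlap (0.13 ± 0.06, SE, adjusted p = 0.358, and 0.054 with its probe sets averaged). They nearly met, with the highest sufficient array at 8.2224 and the lowest deficient array at 8.2234, against a within-group SD of 0.06. Rab40c, a Rab with a SOCS box that binds a ubiquitin ligase, had a change of -0.19 ± 0.10 (SE, adjusted p = 0.421). Its low value came from deficient replicate 1, at 7.90, while the other arrays of its group both read 8.25, and without it the change was -0.068. A second, dim probe set of Rab40c read -0.31, without overlap, and the average of both was -0.25.

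Rab6b stood apart from every other member by its spread between arrays of the same group. Rab6b, a paralog of Rab6a best known from neurons, read 9.19, 6.86 and 4.66 in sufficient and 8.06, 5.25 and 4.48 in deficient arrays. The highest array was 26.2-fold above the lowest, and the range was 23.2-fold within the sufficient and 11.96-fold within the deficient group. Both arrays titled replicate 1 were the highest of their group, and both titled replicate 3 the lowest. The group difference of -0.97 ± 1.097 (SE, adjusted p = 0.766) was well inside this spread, and without sufficient replicate 1 it turned to 0.17. Each deficient array read below the sufficient array of the same number. With replicate number as a block in limma the adjusted p was 0.0551. Rab6b was singled out after its values were seen.

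The within-group SD of Rab6b was 2.08 log2 units, the highest of all 12394 genes, and the next highest among members was 0.27 (Stx2). The median SD was 0.08 over the members and 0.10 over all genes. Only 10 genes had a range over 1 log2 unit in both groups, and Cdk5rap1 had the next highest SD among them (1.196). Cdk5rap1, an enzyme that modifies transfer RNA, read 7.79, 8.67 and 9.94 in sufficient and 7.39, 9.77 and 9.52 in deficient arrays, so that both arrays titled replicate 1 were the lowest of their group. Rell1, another of the 10, read 8.67, 7.27 and 6.87 against 8.54, 7.41 and 7.24, with the arrays of each group in the same order as for Rab6b. Nefh, also one of the 10, had that order too, at 6.64, 5.58 and 5.34 against 7.04, 6.89 and 5.73. Hspa1a, a heat shock chaperone and also one of the 10, had no such shared order, at 9.07, 10.54 and 8.52 against 9.81, 8.31 and 7.72. Neither did Hspa1b, at 11.86, 12.94 and 11.38 against 12.34, 10.95 and 10.62. The spread was not shared by genes beside Rab6b. Over the 5 measured neighbours on each side, in the gene order of assembly GRCm38.p6, the SD lay between 0.04 (Topbp1) and 0.19 (Ky), and the nearest, Slco2a1 and Srprb, had 0.13 and 0.06. Rab6a, on another chromosome, had 0.04. Rab6b has a single probe set, so its spread could not be set against another reading of the gene.

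**Figure D3:**
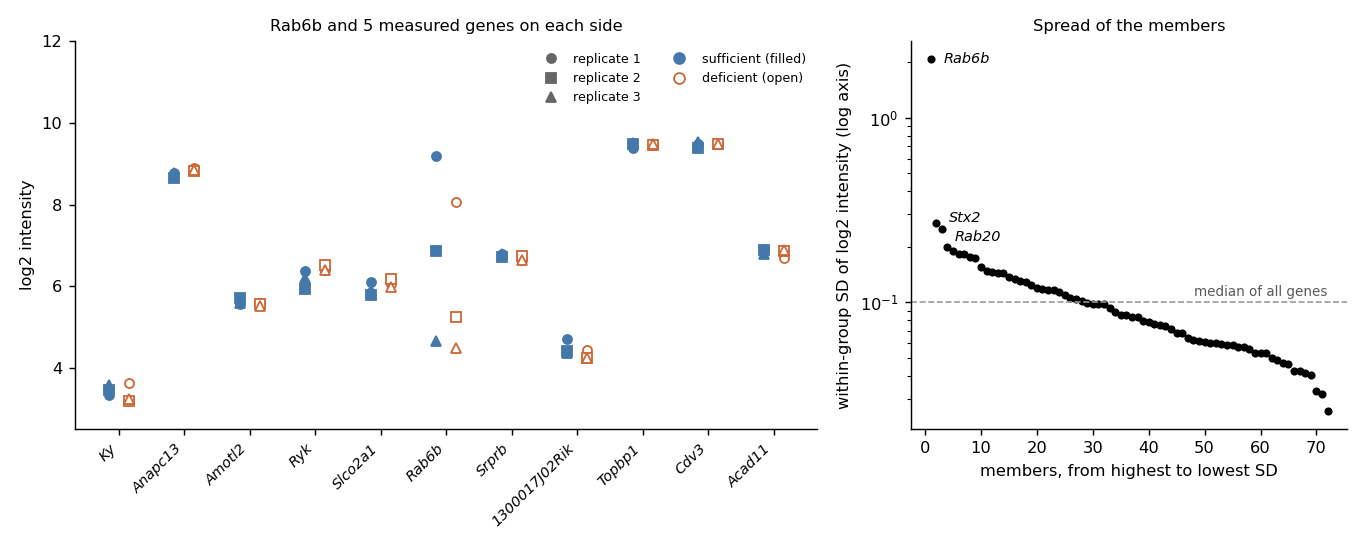
Left, log2 intensity of Rab6b and of 5 measured genes on each side of it, on each array; levels of different genes are not comparable. Right, within-group SD (log axis) of the 72 members from highest to lowest, with the median of all genes as a dashed line. Rab6b lies at 2.08 and no other member above 0.27.

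Several probe sets read the same gene for 42 of the members, and they often differed. The members had 146 probe sets in all, of which 0 passed when adjusted over all 20393 probe sets with 1 gene (smallest adjusted p = 0.0999), against 1.69% of all. At an unadjusted p under 0.05 there were 14 (9.59%), 5 higher and 9 lower, against 13.6% of all. For 26 members at least a pair of probe sets was not dim, and in 17 of these the changes had both signs. Vamp4 and Stx8 were the 2 members with an unadjusted p under 0.05 in both directions. Vamp4 read -0.20 ± 0.05 on the probe set that stands for it, 0.19 ± 0.07 on the second brightest and -0.29 ± 0.19 (SE) on the third. Stx8 read 0.18 ± 0.06, -0.05 ± 0.08 and, on a dim probe set, -0.29 ± 0.12 (SE of the log2 change). The position of each probe set within its gene was not analysed here.

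Rab2a, an endoplasmic reticulum and Golgi Rab with 7 probe sets, had a change of 0.04 ± 0.05 (SE) on the brightest but of -0.20 ± 0.08 and -0.21 ± 0.08 on the next pair (unadjusted p = 0.0309 and 0.0298 in limma). Stx6 had a change of 0.08 ± 0.08 on its brightest and of 0.22 ± 0.08 on its second probe set. Both probe sets of Rab6a were negative, -0.12 ± 0.05 and -0.10 ± 0.06.

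**Figure D4:**
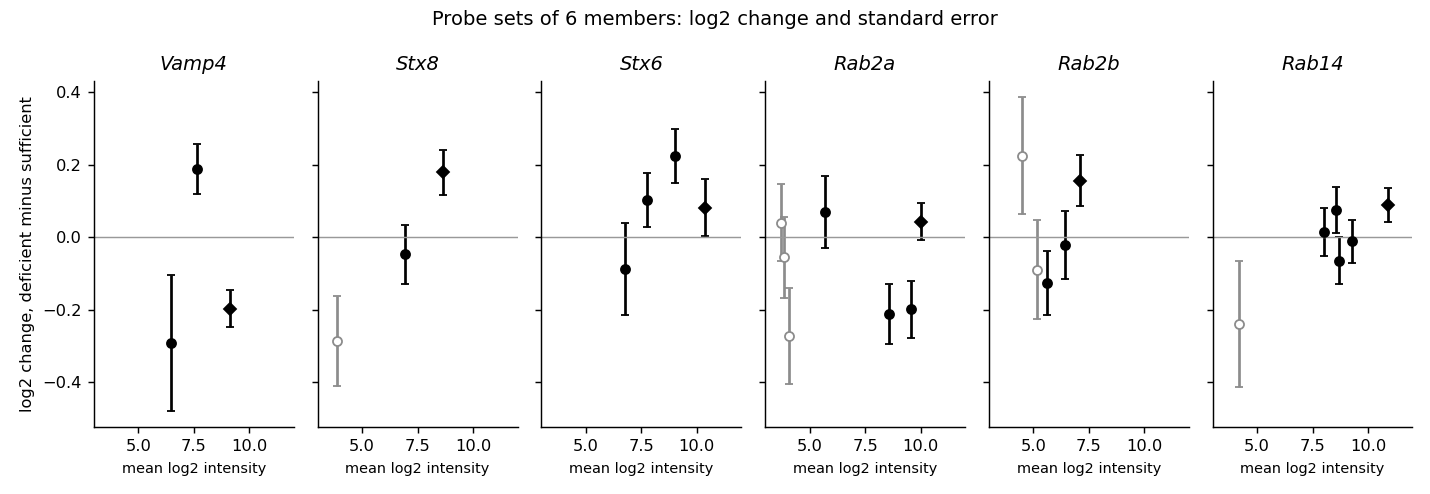
Log2 change (vertical axis, with standard error) against mean log2 intensity for every probe set of 6 members. Diamonds mark the probe set that stands for the gene and open grey points dim probe sets. Vamp4 has estimates of -0.20 and 0.19 on its 2 brightest probe sets, and the 2 brightest Rab2a probe sets read 0.04 and -0.20.

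Proteins that act with the Rabs and SNAREs were read from a list of 134 genes, of which 92 were measured. Of these 2 rose and 2 fell, against 1.44% higher and 0.766% lower over all genes, with a median change of -0.0012. Sytl2, a synaptotagmin-like protein that binds Rab27 on secretory vesicles, read 8.35, 8.33 and 8.37 in sufficient and 7.33, 7.36 and 7.34 in deficient arrays. The arrays of each group lay within 0.04 log2 units of each other, and the fall of 1.01 on the log2 scale (SE 0.05, adjusted p = 9.07e-05) was far outside that. Bicd2, a dynein adaptor that Rab6 recruits to the Golgi, fell by 0.26 (SE 0.05, adjusted p = 0.0449), from 9.01, 8.98 and 9.01 to 8.68, 8.73 and 8.83. Rilpl2, a RILP-like effector, rose by 0.40 ± 0.06 (SE, adjusted p = 0.00967), and Dennd2d, a DENN domain protein of a family that activates Rabs, by 0.33 ± 0.06 (adjusted p = 0.0267). The groups did not overlap for these 4 genes.

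These calls differed in how they held. With each array left out in turn Sytl2 and Rilpl2 passed in all 6 fits. Bicd2 passed in none, with adjusted p from 0.0556 to 0.169 (changes from -0.30 without deficient replicate 3 to -0.22 without deficient replicate 1), nor with the mean of its probe sets (-0.19). Dennd2d lost its call without sufficient replicate 3 (adjusted p = 0.0711) and without deficient replicates 1, 2 or 3 (0.0658, 0.11 and 0.0671). Without the intensity trend Sytl2 alone kept its call. By class, 1 of 33 Rab regulators rose, 1 of 20 Rab effectors rose and 2 fell, and 0 of 11 further SNAREs and 0 of 28 SNARE regulators and tethers passed in limma, against 2.21% of all genes. With no adjustment, at p under 0.05, 8.63% of all genes were higher and 5.8% lower. On that count the Rab regulators had 3 higher and 2 lower, the Rab effectors 2 and 2, the further SNAREs 3 and 0, and the SNARE regulators and tethers 4 and 2.

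Of the genes left out by name, Rab27a was dim and did not pass (-0.18 ± 0.13, SE, adjusted p = 0.587). Vamp8, an R-SNARE of granule and endosome fusion, read 9.61, 9.48 and 9.62 against 9.76, 9.72 and 9.68, a change of 0.15 ± 0.05 (adjusted p = 0.187). Stx11 was not among the 12394 genes measured, since no probe set was annotated to it alone.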

How the data were processed

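The deposited table holds log2 intensities of 22690 Affymetrix probe sets on 6 arrays, summarised by the authors with RMA, per the submitters' processing notes. RMA corrects background, quantile normalizes and summarises probes, which narrows differences between arrays. That the values are log2 was read from their range. Scanner files were not used here, so background and saturation could not be read. Probe sets were named through the platform annotation: 20393 had 1 gene, 691 had several and 1606 were not listed, and only the first were used. The probe set with the highest mean stood for a gene, with no filter on dim probe sets.

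The test was limma 3.58.1 under R 4.3.3 (lmFit, then eBayes with an intensity trend; two-sided; Benjamini-Hochberg over all 12394 genes; threshold 0.05). Errors are SDs over 3 arrays or limma's moderated standard errors. The fit was tested on simulated data. The members, lists and role groups were chosen with earlier results of these data known. Named genes were members past the threshold, the 12 members with the smallest p, the 2 with the smallest p in each of 10 role groups, list genes past the threshold, Gata3 and the genes left out by name; other members are given by their values as examples of a role. Replicate numbers were not taken as pairs, since the labels do not state that they pair mice. Deviations from the group means correlated by 0.0388, -0.0176 and 0.0702 for same-numbered arrays of the groups. For arrays of different numbers the correlations ran from -0.063 to 0.0153. The largest values, 0.0702 and 0.0388, were both of same-numbered arrays, so these correlations do not settle whether the arrays are paired. Alternatives covered the replicate block, the variance model, dim probe sets, normalization, array weights, the probe set per gene, the threshold and each array left out. Python 3.11.15 and matplotlib 3.10.9 made the figures.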

Additional observations from a re-analysis of the deposited data

How the results depend on the processing

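In all 15 refits 0 Rab or SNARE genes passed at an adjusted p under 0.05. With the threshold at 0.10 and the fit otherwise as reported, Rab37 (1 higher) and Vamp4 (1 lower) passed; over the refits their adjusted p ran from 0.056 to 0.236 and from 0.0553 to 0.704. The median change of the members was 0.02 and became -0.0018 when all probe sets of a gene were averaged; with 1 array left out it was 0.013 to 0.027. Of 310 values of named members under these refits, Rab6b not counted, 301 kept their direction. That count overstates stability. Refits that changed only the replicate block, the variance model or the dim probe sets left the estimates as they were. They could not turn a direction, nor could averaging for a gene with 1 probe set. With all probe sets averaged Stx8 turned to -0.051 and Rab14 to -0.023, and without probe sets ending in _x_at or _s_at Rab14 turned to -0.011. With 1 array left out the change spanned -0.22 to 0.078 for Stx2, -0.041 to 0.15 for Snap25, -0.15 to 0.012 for Snap91 and -2.10 to 0.17 for Rab6b. Of the listed partner genes, 0 were higher and 1 lower without the intensity trend, 5 were higher with array quality weights, 1 was lower with all probe sets averaged, and 6 were higher at an adjusted p under 0.10. With 1 array left out, 1 to 3 were higher and 1 was lower. With the replicate block 0 members were higher and 0 lower (Rab6b had an adjusted p of 0.0551 at an estimate of -0.97), and 3 partner genes were higher and 2 lower. The causes of these shifts were not tested. Precision is limited by 3 arrays a group and, for the 14 dim members, by a signal that cannot be set against background here.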
